A study of Mus musculus with 23 samples.

Results

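The genes described here are 44 genes of mitosis and cytokinesis, taken by symbol from a fixed list of spindle, kinetochore, checkpoint and cytokinesis genes and not by a threshold on measured values, although the list was chosen with earlier results of these data known. All 44 were present among the 32793 gene rows of the deposited tables, and all 44 passed the low-count filter that left 14187 genes for testing. For description they were placed in 8 groups by role. These were 5 kinases (Aurka, Aurkb, Plk1, Bub1, Ttk), 3 checkpoint proteins (Bub1b, Bub3, Mad2l1), 3 partners of Aurkb in the chromosomal passenger complex (Incenp, Birc5, Cdca8) and 10 centromere and kinetochore proteins (Cenpa, Cenpe, Cenpf, Cenpi, Cenpk, Cenpm, Ndc80, Nuf2, Spc24, Spc25). The others were 8 spindle proteins (Kif11, Kif18a, Kif2c, Kif22, Tpx2, Nusap1, Ckap2, Hmmr), 7 cytokinesis proteins (Kif20a, Kif20b, Kif23, Prc1, Anln, Ect2, Racgap1), 6 regulators of entry into and exit from mitosis (Cdc25b, Cdc25c, Cdc20, Ube2c, Pttg1, Espl1) and 2 chromosome proteins (Top2a, Mki67).

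The samples were 23 poly(A)-selected RNA-seq libraries of C2C12, an immortalised mouse myoblast line, labelled either WT (control) or Runx1KO (here KO), for a knockout of the transcription factor Runx1. Day 0 stands for cells in growth medium (20% fetal bovine serum). The other libraries came from cells moved to differentiation medium (2% horse serum) and sampled, by their titles, on days 1, 3 and 6. The text describing the series gives day 5 for the last time point. The 2 labels and 4 days gave 8 groups, with 2 libraries for WT in growth medium and 3 for every other group. The labels do not say how the knockout was made, whether it is 1 clone, or whether replicates were separate cultures, so the p-values below measure only the spread between these libraries, which may be technical.

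Total counts ran from 22197606 to 23684077 per library. Runx1 mRNA itself was higher under the KO label: in growth medium it was 84.0 and 84.0 CPM (read counts scaled to a common library total) in the libraries labelled WT and 118, 119 and 122 CPM in those labelled KO, and on day 6 it was 146, 148 and 165 against 297, 319.7 and 315 CPM. Genotypes are therefore named below as the libraries are labelled. The myoblast genes Myod1, Myf5, Des, Cdh15 and Chrna1 were expressed in every group, but their summed level also differed between the labels. It was 1905 to 1998 CPM in WT and 2666 to 2816 CPM in KO libraries in growth medium, and 2557 to 2746 against 2426 to 3049 CPM on day 1. On day 3 it was 2539 to 2717 CPM in WT and 3365 to 3778 CPM in KO libraries, and on day 6 it was 2276 to 2684 against 3610 to 4279 CPM. Defining genes of other cell types were near 0: the summed level of 4 endothelial genes was at most 1.25 CPM and that of 3 adipocyte genes at most 0.0436 CPM, and the macrophage gene Adgre1 was at 0 in all libraries. The 5 macrophage genes together (Adgre1, Csf1r, Cd68, Lyz2, Ptprc) ran from 0.628 to 3.21 CPM up to day 3, and on day 6 from 4.28 to 7.86 CPM in the libraries labelled WT and from 10.1 to 12.2 CPM in those labelled KO. The library KO day 1 replicate 2 stood apart from its replicates. Across the 44 genes its difference from replicates 1 and 3 ran from -0.97 (Cenpm) to 0.80 (Cenpe) on the log2 scale, with 17 genes below and 27 above, and that difference had a Pearson r of -0.82 with the GC content of the transcripts over the 44 genes. Counts of the 44 genes that use day 1 of the KO libraries are therefore given with and without it, while levels, percentages of growth medium, promoter sets and other gene lists include it.

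Cells that divide build a spindle of microtubules, attach each chromosome to it through the kinetochore, hold back chromosome separation until every kinetochore is attached, and then cut the cell between the separated chromosomes. The anaphase-promoting complex ends mitosis by marking its substrates for degradation. Most of the mRNAs for these proteins accumulate late in the cell cycle and are low in resting cells, where the repressor complex DREAM sits on a promoter element called CHR. In cycling cells the MuvB core of that complex acts with B-Myb and Foxm1 as an activator. Myoblasts that receive differentiation medium leave the cell cycle and fuse into myotubes, while some stay behind as single cells. In RNA from whole cultures, fewer dividing cells and less of these mRNAs per cell cannot be told apart.

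The promoters of these genes also share short stretches of sequence. RefSeq promoter windows of mouse build GRCm38.p6, each from 250 bases before to 50 bases after the start, were found for 38 of the 44 genes. No window was matched for Aurkb, Incenp, Spc24, Tpx2, Kif20a and Cdc25c. The stretches below are the 100 bases just before the start, read 5′ to 3′ on the gene's strand, taken from RefSeq's start of each gene, with CHR-type letters (TTTGAA or TTCGAA) and CCAAT boxes in capitals, in either orientation (TTCAAA and ATTGG are the reverse complements). The first 5 hold both motifs, Bub3 holds both and had the smallest difference between the labelled genotypes on day 3, and Pttg1 and Nuf2 hold neither in this stretch.
Cdc20: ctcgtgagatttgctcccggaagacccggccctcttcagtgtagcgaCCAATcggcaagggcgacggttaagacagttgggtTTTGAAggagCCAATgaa
Espl1: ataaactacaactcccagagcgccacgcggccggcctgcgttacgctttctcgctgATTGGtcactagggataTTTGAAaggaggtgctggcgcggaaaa
Kif11: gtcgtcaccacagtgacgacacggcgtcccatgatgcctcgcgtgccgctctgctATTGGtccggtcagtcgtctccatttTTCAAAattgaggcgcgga
Top2a: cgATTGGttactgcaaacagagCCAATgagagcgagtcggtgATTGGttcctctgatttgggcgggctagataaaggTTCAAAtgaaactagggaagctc
Ube2c: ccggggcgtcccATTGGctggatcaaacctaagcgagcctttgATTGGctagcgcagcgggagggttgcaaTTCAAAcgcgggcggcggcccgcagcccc
Bub3: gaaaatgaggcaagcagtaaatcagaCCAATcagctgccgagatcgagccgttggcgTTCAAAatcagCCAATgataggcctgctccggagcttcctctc
Pttg1: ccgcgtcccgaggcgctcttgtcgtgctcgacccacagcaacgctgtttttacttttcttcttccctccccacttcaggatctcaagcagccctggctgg
Nuf2: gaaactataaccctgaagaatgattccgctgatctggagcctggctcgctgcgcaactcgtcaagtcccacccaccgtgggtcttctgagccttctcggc
These stretches lie at chr4:118437344-118437443, minus strand (Cdc20), chr15:102296193-102296292, plus strand (Espl1), chr19:37376282-37376381, plus strand (Kif11) and chr11:99024190-99024289, minus strand (Top2a). Those of the other 4 lie at chr2:164769829-164769928, plus strand (Ube2c), chr7:131560270-131560369, plus strand (Bub3), chr11:43425982-43426081, minus strand (Pttg1) and chr1:169531465-169531564, minus strand (Nuf2). Starts differ between annotations: that of GENCODE M21 lies 9, 27, 31, 148 and 270 bases upstream of RefSeq's for Cdc20, Espl1, Ube2c, Bub3 and Pttg1. Part of each of the first 3 stretches, and the whole of the last 2, thus lies inside the gene by GENCODE, and presence or absence of letters is stated for RefSeq's start only.

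Over the whole window and both strands, TTTGAA was found for 26 of the 38 genes (68.4%), against 20.2% of 27025 genes with a window. The 38 genes have 43 windows, and a gene was counted where any of its windows held the letters. Within 50 bases either side of the start the shares were 60.5% (23 of 38) and 5.72%. In the 250 bases before the start they were closer together, at 31.6% (12 of 38) and 18.3%. The variant TTCGAA occurred in 13.2% of the 38 genes and 1.8% of all genes with a window. At least 1 CCAAT was present in 73.7% against 41.1%, and at least 2 in 44.7% against 13.3%. Letters of the Runx type (TGTGGT) were found for 4 of the 38 genes (10.5%), against 18.9% of all genes with a window. E2F-type letters (TTTCCCGC, TTTGGCGC or TTTCGCGC) were found for 2 of the 38 (5.26%), against 2.12%. Motifs were counted separately even where matches shared bases, and a match describes letters only, since no binding was measured. The 29 genes with TTTGAA or TTCGAA had a median log2 fold change (log2FC, KO minus WT as labelled) of 0.87 on day 1 and 1.10 on day 3, beside 0.79 and 1.07 for the 9 genes with neither, among them Birc5, Cenpe, Kif18a, Mad2l1 and Nusap1. The ranges of these 2 sets overlapped on both days (0.70 to 1.43 and 0.72 to 1.15 on day 3).

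In growth medium the summed level of the 44 genes was 5772 and 6080 CPM in the WT libraries and 6245 to 6524 CPM in the KO libraries. On day 1 it was 2167 to 2324 CPM in the WT libraries against 3621 to 4156 CPM in the KO libraries, on day 3 it was 2090 to 2614 against 4506 to 5212 CPM, and on day 6 it was 1300 to 1564 against 2030 to 2132 CPM. No library of one label overlapped the other on any day. In the WT libraries the level dropped by day 1 and stayed there on day 3, whereas in the KO libraries it was higher on day 3 than on day 1. As a percentage of its own growth-medium level, the median gene stood at 35.8% on day 1, 40.1% on day 3 and 23.7% on day 6 in the WT libraries. In the KO libraries it stood at 62.4%, 76.7% and 30.1% on the same days. Genes of myotubes also differed between the labels. The summed level of 7 myotube genes (Myog, Ckm, Acta1, Myh3, Tnnt3, Mymk, Ttn) was 10.97 to 12.3 CPM in WT and 26.1 to 31.1 CPM in KO libraries in growth medium, and 80.8 to 129 against 188 to 224 CPM on day 1. It was 1968 to 2159 CPM in WT and 3325 to 6052 CPM in KO libraries on day 3, and 1610 to 1877 against 8841 to 10920 CPM on day 6. The numbers called higher in the KO libraries were 1, 5, 7 and 7 of 7 on days 0, 1, 3 and 6, where 7.36%, 22.9%, 24% and 22% of all genes were. Median log2FC values of the myotube genes were 1.13, 1.54, 1.17 and 2.58, so that this difference was widest on day 6 while that of the 44 genes was widest on day 3. Their part in the results below was not tested.

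**Figure D1:**
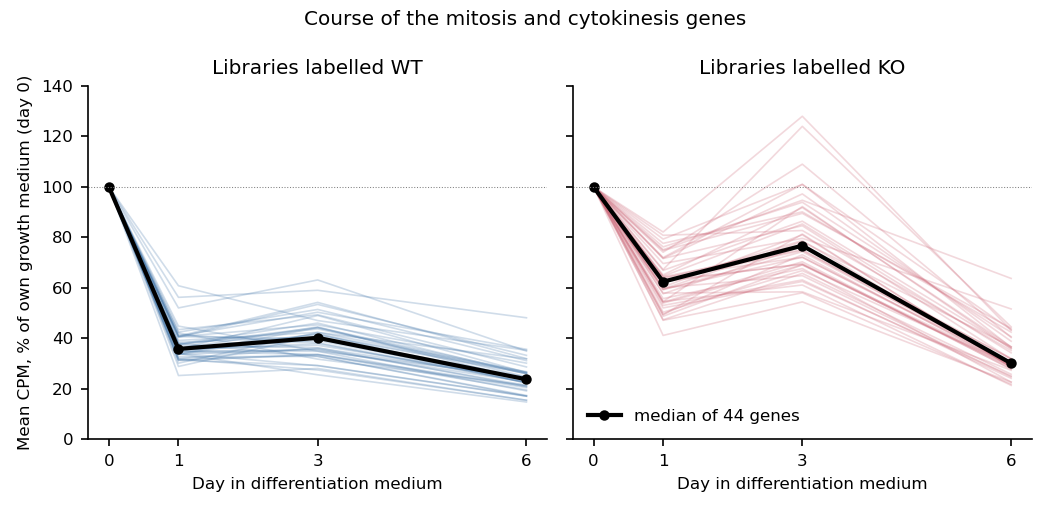
Mean CPM of each of the 44 genes as a percentage of its own growth-medium mean (y axis) by day in differentiation medium (x axis), for libraries labelled WT (left) and KO (right). Thin lines are genes and the black line with points is the median, which reads 35.8%, 40.1% and 23.7% on the left and 62.4%, 76.7% and 30.1% on the right.

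The first question named by the series is how the labelled genotypes differ at each time point. In growth medium few of the genes differed: 3 of the 44 were called higher in the KO libraries (edgeR quasi-likelihood test, Benjamini-Hochberg adjusted p under 0.05 over 14187 genes) and none lower, where 7.36% of all genes were called higher and 10.1% lower. At an unadjusted p under 0.05 the counts were 5 and 0, and DESeq2 also called 3 higher and none lower. The median log2FC of the 44 was 0.07, beside 0.00 over all genes. The 3 were Prc1, which bundles the microtubules between separating chromosomes, Incenp, the scaffold of the passenger complex, and Bub3, which docks checkpoint kinases at kinetochores. Prc1 read 195 and 215 CPM in the WT libraries and 272, 283 and 282 CPM in the KO libraries, a log2FC of 0.44 ± 0.10 (SE, adjusted p = 0.00196). Incenp read 128 and 139.9 against 155, 163 and 169 CPM (log2FC 0.28, SE 0.087, adjusted p = 0.0295). Bub3 read 136 and 146 against 160.3, 172 and 178 CPM (log2FC 0.27, SE 0.087, adjusted p = 0.0343). The groups did not overlap for any of the 3. Over the 44 genes, 16 had KO libraries all above the WT libraries and 5 all below, where 25.1% and 26.6% of all genes did so. The lowest values belonged to Cdc25c, the phosphatase that activates the mitotic kinase (log2FC -0.23, adjusted p = 0.186), and Cenpe, the kinetochore motor (-0.19, adjusted p = 0.511). Bub3 lost its call with library size only, without a low-count filter, with the replicate block (adjusted p = 0.0582) and without KO replicate 2 or 3 (adjusted p = 0.0876 and 0.118). Incenp lost its call with library size only, without a low-count filter, on both TPM scales (adjusted p = 0.156 and 0.155) and without KO replicate 2 or 3 (adjusted p = 0.071 and 0.103). The count was 1 with library size as the only scaling, without a low-count filter, and without KO replicate 2 or KO replicate 3. It was 12 (9 higher, and Bub1, Cdc25c and Cenpe lower with adjusted p = 0.03, 0.0411 and 0.0266) when only the growth-medium libraries were fitted. Leaving out a WT library leaves 1 in that group, whose spread is then assumed to be that of the other groups, so only effect sizes are given. Without WT replicate 1 and without WT replicate 2, the log2FC was 0.24 and 0.32 for Bub3 and 0.23 and 0.34 for Incenp. The median of the 44 was then 0.06 and 0.11, and Prc1 had 0.40 without WT replicate 1.

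One day after the change of medium all 44 genes were called higher in the KO libraries, where 22.9% of all genes were. The log2FC had a median of 0.80 and ran from 0.23 to 1.17, beside a median of 0.03 over all genes. The lowest and highest KO and WT libraries did not overlap for 41 of the 44 (24.5% of all genes). The exceptions were Cdc25b, Pttg1 and Cenpm, for each of which KO replicate 2 fell within the WT range. The largest differences were in Kif11, the motor that pushes the spindle poles apart (log2FC 1.17, SE 0.12, adjusted p = 3.57e-08), and Ect2, which activates RhoA at the site of the cleavage furrow (log2FC 1.12, SE 0.13, adjusted p = 4.99e-07). The smallest were in the phosphatase Cdc25b (log2FC 0.23, SE 0.075, adjusted p = 0.0165) and in Pttg1, or securin, the inhibitor of separase (log2FC 0.32, SE 0.11, adjusted p = 0.0267). Without KO replicate 2 all 44 were still called higher, with a median of 0.73. Cdc25b then had a log2FC of 0.31 and Pttg1 of 0.43, while Kif11 had 0.98, Ect2 0.91 and Cenpe 0.44 in place of 0.78. The order at the top also changed, with Plk1 (1.00), Ttk (1.00) and Prc1 (0.98) then at or above Kif11 and all 4 above Ect2. The calls of Cdc25b and Pttg1 were lost without KO replicate 1 (log2FC 0.17, adjusted p = 0.0901, and 0.18, adjusted p = 0.208) and without KO replicate 3 (adjusted p = 0.0818 and 0.0575), and that of Cenpm without KO replicate 1 (0.42, adjusted p = 0.0909). Pttg1 also lost its call without WT replicate 1 (adjusted p = 0.079) or WT replicate 2 (adjusted p = 0.0992), and Cdc25b without a low-count filter (adjusted p = 0.06) and on both TPM scales (adjusted p = 0.0696 and 0.0713). With only the compared groups fitted, none of Cdc25b, Pttg1 and Cenpm was called (adjusted p = 0.183, 0.142 and 0.0799).

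By day 3 the difference was again in 1 direction for all 44 genes, where 24% of all genes were called higher. The median log2FC was 1.06, beside 0.04 over all genes, and values ran from 0.70 to 1.43. KO and WT libraries did not overlap for any of the 44, as for 33.2% of all genes. Of the 44 genes, 27 had a log2FC of at least 1. The largest differences were in Ube2c, the ubiquitin-conjugating enzyme of the anaphase-promoting complex (log2FC 1.43, SE 0.12, adjusted p = 1.57e-09), and in Plk1, a kinase needed from mitotic entry to cytokinesis (log2FC 1.39, SE 0.13, adjusted p = 7.05e-09). The values of Ube2c are uncertain on every day, since it shares exon sequence with the muscle gene Tnnc2, as described below. The smallest were in Bub3 (log2FC 0.70, SE 0.078, adjusted p = 1.49e-07) and Cenpi, a subunit of the inner kinetochore (log2FC 0.72, SE 0.11, adjusted p = 9.83e-06). Medians by role lay close together, from 0.97 in the passenger partners to 1.13 in the cytokinesis genes. Leaving out any 1 library of the comparison left all 44 called.

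On day 6 the difference was smaller: 38 of the 44 genes were called higher and none lower, where 22% of all genes were called higher, and the median log2FC was 0.50, beside 0.00 over all genes. At an unadjusted p under 0.05 none was lower, and DESeq2 called none lower. Again 38 of the 44 had groups that did not overlap (26.5% of all genes), but not the same 38: Cenpf and Espl1 were called with overlapping groups, and Nuf2 and Spc25 missed the threshold with groups apart. The largest log2FC belonged to Ube2c (log2FC 0.88, SE 0.12, adjusted p = 2.88e-06) and Plk1 (log2FC 0.81, SE 0.13, adjusted p = 2.27e-05). All 6 genes that missed the threshold were of the centromere and kinetochore group, in which 4 of 10 were called, and every gene of the other roles was called. The 6 were Spc24 (log2FC -0.02, adjusted p = 0.922), Cenpi (0.12, adjusted p = 0.452), Cenpm (0.25, adjusted p = 0.332), Nuf2 (0.26, adjusted p = 0.0799), Spc25 (0.29, adjusted p = 0.0698) and Cenpk (0.52, adjusted p = 0.0939). Whether the kinetochore genes differed from the other roles was not tested. Some of the calls were lost in other settings: that of Cenpe (0.45, adjusted p = 0.0252) with library size only (adjusted p = 0.0744), on both TPM scales (0.28 and 0.33, adjusted p = 0.201 and 0.171) and without KO replicate 1 or 2 or WT replicate 1 or 2 (adjusted p = 0.0651 to 0.188). Bub1 and Ect2 lost theirs on both TPM scales and without WT replicate 1 (adjusted p = 0.11 and 0.055), Anln on both TPM scales (adjusted p = 0.0937 and 0.0925) and Ndc80 on log2(TPM + 1) (adjusted p = 0.0508). The count fell to 28 without WT replicate 1, the library with the lowest summed level. On the deposited TPM values (transcript abundances scaled for length and to a common total) it was 26 or 27, depending on the value added before taking logs.

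**Figure D2:**
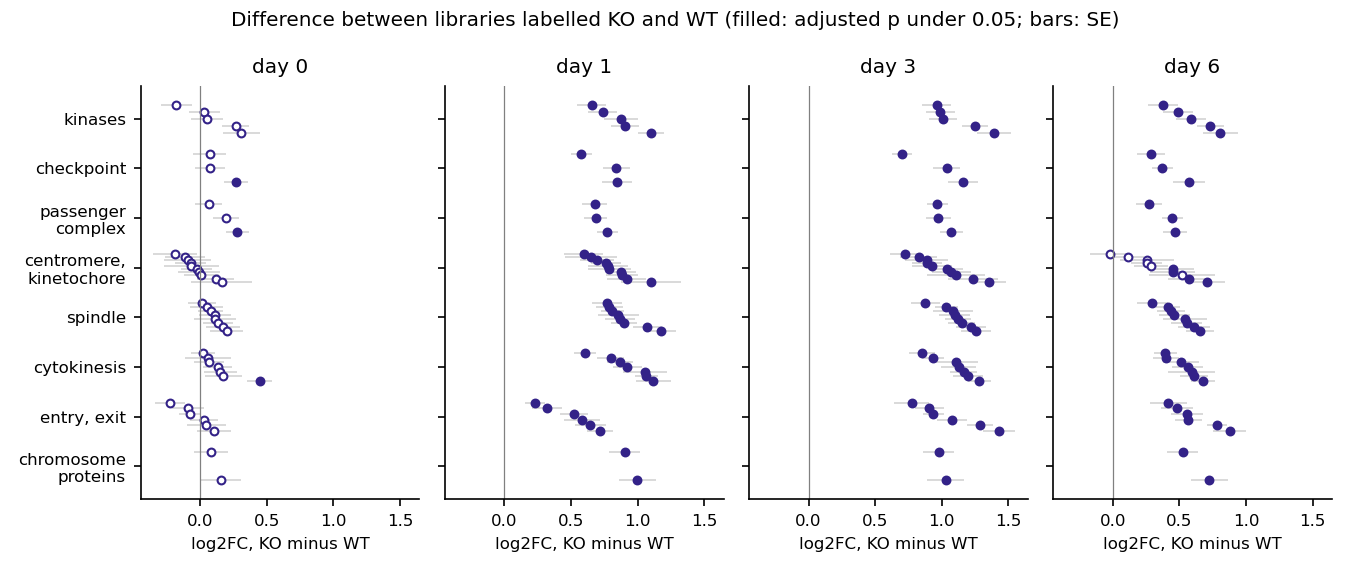
Log2 fold change between libraries labelled KO and WT (x axis) for each of the 44 genes, grouped by role (y axis), in growth medium (day 0) and on days 1, 3 and 6. Filled points have an adjusted p under 0.05 (edgeR), open points do not, and bars are standard errors; 3, 44, 44 and 38 points are filled from left to right.

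The choice of scale moved the split of all calls, while none of the calls between labels of the 28 genes followed through the alternatives changed sign. Among all genes called between the labels on day 3, 55.5% were higher in the KO libraries with the main scaling and 34.3% on either TPM scale, and on day 6 the shares were 51.4% and 34.7% to 34.9%. On day 1 they were 54.4% and 43.3% to 43.4%, and in growth medium 42.1% and 30.2% to 31.3%. With log2(TPM + 0.1) the median over all genes was -0.11 on day 3 and -0.12 on day 6, and that of the 44 genes was 0.90 and 0.37. All 44 were called higher on day 3 on both TPM scales.

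The kinases that drive mitosis are shown first. Plk1 (chr7:122159439-122169873, plus strand, GENCODE M21 on GRCm38) read 204 and 219 CPM in the WT and 246, 261 and 277 CPM in the KO libraries in growth medium. On day 1, Plk1 read 63.1, 65.0 and 73.4 against 144, 96.2 and 129.5 CPM, KO replicate 2 being the lowest of its group but above every WT library. On day 3, Plk1 read 64.4, 63.0 and 46.2 against 143, 152 and 159 CPM, a 2.62-fold difference. The 3 KO libraries of day 3 lay close together and far from the WT range. On day 6, Plk1 read 27.3, 35.4 and 34.9 against 57.6, 57.1 and 56.2 CPM (log2FC 0.81, SE 0.13, adjusted p = 2.27e-05). Aurkb (chr11:69045647-69051664, plus strand), the kinase of the passenger complex that corrects faulty attachments, read 113 and 118 CPM in WT and 119.7, 113 and 127 CPM in KO libraries in growth medium, with overlapping ranges. On day 1, Aurkb read 43.9, 40.5 and 39.9 against 72.0, 56.4 and 67.5 CPM. On day 3, Aurkb read 57.5, 64.3 and 48.4 against 94.9, 112 and 124 CPM (log2FC 0.96, SE 0.11, adjusted p = 1.66e-07). It was thus back near its growth-medium level in the KO libraries, at 92.2% of it, and at 49.0% in the WT libraries. On day 6, Aurkb read 26.9, 32.1 and 32.7 against 41.3, 42.2 and 45.4 CPM. Aurka, which builds the spindle poles, dropped furthest of the 44 on day 1, to 25.2% of growth medium in the WT and 41.1% in the KO libraries. Bub1, which recruits checkpoint proteins to the kinetochore, read 84.4 and 81.9 against 73.5, 74.0 and 72.8 CPM in growth medium, where the KO libraries were all below the WT libraries without passing the test (log2FC -0.18, adjusted p = 0.337, and 0.03 when only the growth-medium libraries were fitted). Its order was the reverse on day 3, at 36.9, 38.3 and 35.1 against 66.7, 77.1 and 77.9 CPM.

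**Figure D3:**
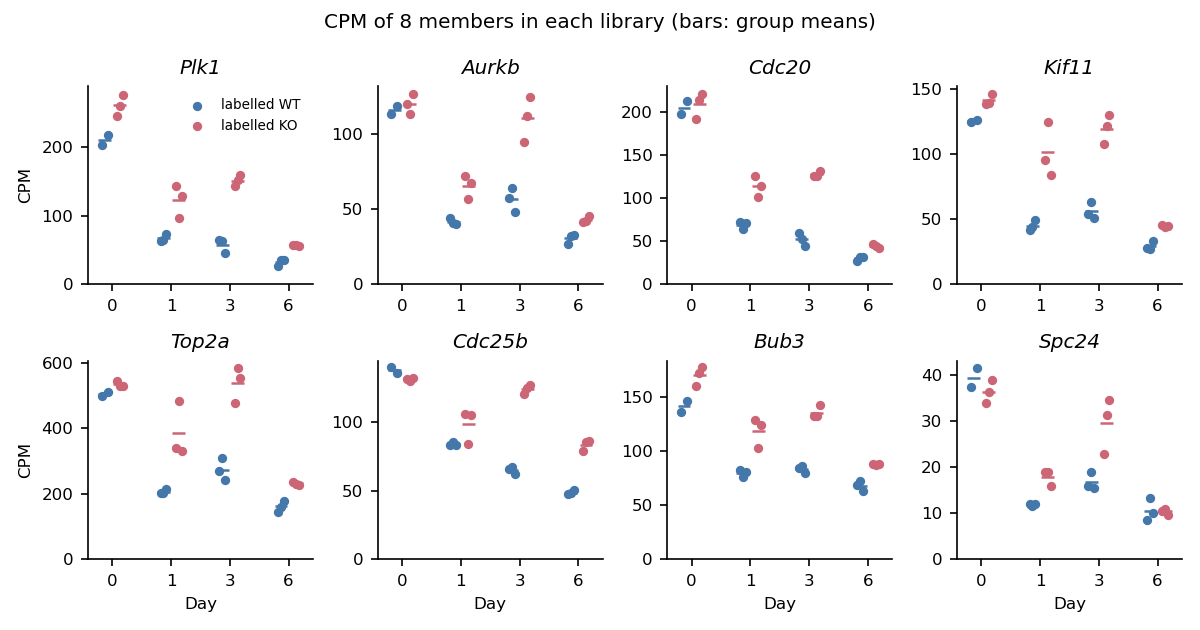
CPM (y axis, from 0) of 8 of the genes in each of the 23 libraries by day (x axis), blue for libraries labelled WT and red for KO, with bars at group means. Plk1, Aurkb, Cdc20, Kif11, Top2a and Bub3 had KO libraries above all WT libraries on days 1, 3 and 6, Cdc25b did so on days 3 and 6, and Spc24 overlapped on day 6.

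Among the checkpoint proteins, Bub1b (chr2:118598211-118641591, plus strand), the BubR1 subunit that holds Cdc20 inactive, read 154 and 159 CPM in WT and 167, 159 and 168 CPM in KO libraries in growth medium. On day 1, Bub1b read 60.9, 57.2 and 56.9 against 98.8, 123 and 93.4 CPM, with KO replicate 2 the highest. On day 3, Bub1b read 62.0, 60.2 and 48.1 against 117, 122 and 142 CPM, a log2FC of 1.16 ± 0.11 (SE, adjusted p = 2.16e-08). The WT group was lowest in replicate 3, the library in which 43 of the 44 genes lay below their group mean. On day 6, Bub1b read 27.1, 32.8 and 38.0 against 51.0, 44.6 and 49.8 CPM. Bub3 (chr7:131560222-131571895, plus strand) kept the largest share of its growth-medium level among the 44 on day 6 in the WT libraries, at 48.1%. It read 81.9, 76.0 and 80.0 CPM in WT and 128, 102 and 124 CPM in KO libraries on day 1. On day 3, Bub3 read 84.2, 85.8 and 79.8 against 132, 132 and 142 CPM. On day 6, Bub3 read 68.8, 71.9 and 62.8 against 88.3, 86.9 and 87.8 CPM (log2FC 0.37, SE 0.079, adjusted p = 0.000528). Its groups did not overlap on any of the 4 days. Mad2l1, the other inhibitor of Cdc20, had log2FC values of 0.84, 1.04 and 0.29 on days 1, 3 and 6.

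Birc5 (chr11:117849251-117855743, plus strand), or survivin, which places the passenger complex at centromeres, read 141 and 161 CPM in WT and 166, 173 and 177 CPM in KO libraries in growth medium. On day 1, Birc5 read 51.3, 47.1 and 53.5 against 83.0, 83.1 and 78.1 CPM. On day 3, Birc5 read 54.3, 59.1 and 47.9 against 104, 117 and 118 CPM (log2FC 1.07, SE 0.089, adjusted p = 1.3e-09). The KO libraries were above all WT libraries on both days. On day 6, Birc5 read 28.1, 35.4 and 32.7 against 46.5, 42.2 and 44.1 CPM. The 4 genes of the complex can be compared per transcript length. In WT growth medium Birc5 was at 288 ± 16.8 TPM (SD, n = 2), Aurkb at 99.8 ± 0.714 TPM, Cdca8 (borealin) at 98.5 ± 2.63 TPM and Incenp at 69.4 ± 1.77 TPM. On day 3 the levels were 109 ± 10.7 TPM (SD, n = 3), 55.1 ± 8.24 TPM, 37.3 ± 4.72 TPM and 32.6 ± 3.25 TPM in the WT libraries. In the KO libraries of day 3 they were 212 ± 15.2 TPM (SD, n = 3), 96.5 ± 11.7 TPM, 65.8 ± 4.14 TPM and 57.4 ± 3.89 TPM. Birc5 led in all 8 groups, and Aurkb and Cdca8 did not differ beyond their spread in WT growth medium. Incenp had the lowest mean except on day 6 of the KO libraries, where it (26.0 ± 2.06 TPM) and Cdca8 (25.8 ± 1.48 TPM) did not differ beyond their spread. Nor did these 2 genes on day 3 or day 6 of the WT libraries (20.9 ± 2.44 and 23.4 ± 3.39 TPM on day 6).

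Cenpa (chr5:30666777-30674830, plus strand), the histone variant that marks the centromere, read 95.3 and 106 CPM in WT and 104, 108 and 115 CPM in KO libraries in growth medium. On day 1, Cenpa read 39.2, 40.7 and 47.2 against 73.9, 60.5 and 71.4 CPM. On day 3, Cenpa read 37.4, 33.6 and 24.8 against 83.3, 73.0 and 88.3 CPM, a log2FC of 1.35 ± 0.13 (SE, adjusted p = 1.58e-08). Between those days it was lower on the later day in the WT libraries and not in the KO libraries, as described below. On day 6, Cenpa read 17.7, 25.8 and 20.8 against 36.4, 32.7 and 35.6 CPM (log2FC 0.70, SE 0.13, adjusted p = 0.000174). Ndc80 (chr17:71496100-71526857, minus strand), the outer kinetochore subunit that grips microtubules, read 44.5 and 40.8 CPM in WT and 43.2, 43.6 and 40.2 CPM in KO libraries in growth medium. On day 1, Ndc80 read 14.7, 16.0 and 17.5 against 26.4, 39.8 and 24.9 CPM, with KO replicate 2 again the highest. On day 3, Ndc80 read 20.1, 20.8 and 17.9 against 34.8, 43.5 and 45.2 CPM. KO replicates 2 and 3 were on day 3 as high as the libraries in growth medium, and KO replicate 1 was below them. On day 6, Ndc80 read 9.54, 10.2 and 13.3 against 16.2, 14.7 and 18.3 CPM (log2FC 0.57, SE 0.16, adjusted p = 0.0048). Ndc80, Nuf2, Spc24 and Spc25 form 1 complex, but on day 6 only Ndc80 passed the test. Spc24 read 8.38, 13.2 and 9.94 CPM in WT and 10.4, 10.97 and 9.62 CPM in KO libraries on that day, with overlapping ranges, after 15.8, 18.8 and 15.4 against 22.9, 31.2 and 34.6 CPM on day 3. The standard errors of the 4 log2FC values on day 6 were 0.16, 0.12, 0.15 and 0.13. Cenpe read 41.5, 39.4 and 43.2 against 57.0, 98.7 and 56.7 CPM on day 1, where KO replicate 2 lay far above its replicates. Cenpi read 12.2, 10.5 and 14.1 against 14.6, 12.4 and 12.9 CPM on day 6, and Cenpm 10.01, 12.9 and 9.94 against 14.5, 12.1 and 12.6 CPM.

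Kif11 (chr19:37376403-37421859, plus strand) stands for the spindle genes. It read 125 and 127 CPM in WT and 139, 139.6 and 147 CPM in KO libraries in growth medium. On day 1, Kif11 read 41.4, 44.3 and 49.4 against 95.9, 125 and 83.9 CPM. On day 3, Kif11 read 54.1, 63.4 and 50.7 against 108, 122 and 130.1 CPM (log2FC 1.10, SE 0.12, adjusted p = 5.93e-08). Every WT library lay below the lowest KO library on both days. On day 6, Kif11 read 27.7, 27.1 and 33.3 against 45.5, 43.96 and 45.1 CPM. Tpx2 (chr2:152847964-152895321, plus strand), which activates Aurka and nucleates spindle microtubules, read 238 and 249 CPM in WT and 255, 252 and 264 CPM in KO libraries in growth medium. On day 1, Tpx2 read 82.3, 82.0 and 96.9 against 159, 156 and 142 CPM. On day 3, Tpx2 read 90.8, 100.2 and 80.9 against 169, 193 and 194 CPM (log2FC 1.03, SE 0.088, adjusted p = 2e-09). The KO libraries again lay above all WT libraries on day 6, at 79.4, 79.2 and 75.6 CPM against 52.4, 61.2 and 62.1 CPM. Nusap1, a microtubule-binding protein of the spindle, was in the main fit the only one of the 44 called higher on day 3 than in growth medium in the KO libraries. With only the compared groups fitted, 2 genes were called so. In the KO libraries Nusap1 changed as follows. It read 85.9, 83.7 and 83.5 CPM in growth medium and 93.5, 112 and 118 CPM on day 3 (log2FC 0.35, SE 0.10, adjusted p = 0.00416), while the WT libraries read 74.7 and 79.5 and 51.3, 50.9 and 43.8 CPM.

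Among the cytokinesis genes, Anln (chr9:22332012-22389188, minus strand), or anillin, the scaffold of the contractile ring, read 369.8 and 367 CPM in WT and 410.2, 383 and 417 CPM in KO libraries in growth medium. On day 1, Anln read 126, 131 and 128 against 216, 269 and 215 CPM. On day 3, Anln read 132, 142 and 117 against 223, 243 and 241 CPM. No change from day 1 to day 3 passed the test under either label (log2FC 0.03, adjusted p = 0.881, and 0.01, adjusted p = 0.952). On day 6, Anln read 74.4, 79.2 and 96.3 against 119, 105 and 105 CPM (log2FC 0.40, SE 0.10, adjusted p = 0.00186). Racgap1 (chr15:99620496-99651656, minus strand), which with Kif23 forms the centralspindlin complex, read 387 and 411 CPM in WT and 396, 404 and 414 CPM in KO libraries in growth medium. On day 1, Racgap1 read 152, 149 and 159 against 246, 222 and 231 CPM. On day 3, Racgap1 read 167, 179 and 139 against 282, 310.3 and 335 CPM (log2FC 0.94, SE 0.083, adjusted p = 4.13e-09). KO replicate 1 was the lowest of its group on day 3, the library in which 43 of the 44 genes lay below their group mean. On day 6, Racgap1 read 89.0, 102 and 102 against 129, 130.5 and 126 CPM. Prc1 kept the highest share of its growth-medium level among the 7 cytokinesis genes on day 3, at 51.4% in the WT and 91.8% in the KO libraries, and read 110.1, 113 and 92.7 against 224, 265 and 279 CPM.

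Next come the regulators of entry and exit. Cdc20 (chr4:118432901-118437352, minus strand), the activator of the anaphase-promoting complex, read 198 and 212 CPM in WT and 192, 214 and 220.4 CPM in KO libraries in growth medium. On day 1, Cdc20 read 72.8, 64.3 and 70.7 against 125, 102 and 114 CPM. On day 3, Cdc20 read 59.9, 52.9 and 44.2 against 126, 126 and 131 CPM (log2FC 1.28, SE 0.10, adjusted p = 3.97e-10). It was the most reduced of the 44 on day 6, at 14.7% of growth medium in the WT and 21.3% in the KO libraries. On day 6, Cdc20 read 26.9, 32.1 and 31.2 against 46.9, 45.0 and 41.9 CPM. Cdc25b (chr2:131186949-131198497, plus strand) read 140.2 and 136 CPM in WT and 132, 129.8 and 132 CPM in KO libraries in growth medium. On day 1, Cdc25b read 83.5, 85.4 and 83.0 against 106, 83.8 and 106 CPM. On day 3, Cdc25b read 65.9, 67.0 and 61.8 against 120.4, 125 and 128 CPM (log2FC 0.94, SE 0.076, adjusted p = 9.3e-10). The difference between the labels was thus wide on day 3 in the gene where it was smallest on day 1. On day 6, Cdc25b read 47.2, 48.0 and 50.5 against 78.8, 85.5 and 86.5 CPM, a log2FC of 0.78 ± 0.076 (SE, adjusted p = 1.48e-08). Pttg1 read 44.8, 43.7 and 49.5 against 67.9, 45.8 and 58.3 CPM on day 1 and 39.1, 36.5 and 31.8 against 74.1, 72.3 and 80.0 CPM on day 3, so that its groups overlapped on the earlier day only. Espl1 (chr15:102296266-102324357, plus strand), or separase, which cuts cohesin at anaphase, read 138 and 148 CPM in WT and 144, 136 and 165 CPM in KO libraries in growth medium. On day 1, Espl1 read 51.7, 43.5 and 49.5 against 79.5, 62.3 and 74.5 CPM. Its KO group was lowest in replicate 2 on that day. On day 3, Espl1 read 56.9, 70.5 and 52.5 against 96.0, 116 and 95.8 CPM. On day 6, Espl1 read 25.4, 30.5 and 39.2 against 47.6, 41.0 and 38.3 CPM, and its call (log2FC 0.42, SE 0.14, adjusted p = 0.0185) was lost without WT replicate 1 (0.25, adjusted p = 0.178), without WT replicate 2 (adjusted p = 0.0577), without KO replicate 1 (adjusted p = 0.13), with library size only (adjusted p = 0.053) and on both TPM scales (adjusted p = 0.159 and 0.148).

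Top2a (chr11:98992943-99024189, minus strand), the topoisomerase that untangles sister chromosomes, had the highest mean CPM of the 44 genes in all 8 groups, a scale that grows with transcript length. It read 499 and 509.6 CPM in WT and 543, 529.6 and 529.8 CPM in KO libraries in growth medium. On day 1, Top2a read 201, 203 and 213 against 339, 484 and 330.3 CPM. On day 3, Top2a read 268, 308 and 243 against 477, 584 and 552 CPM (log2FC 0.98, SE 0.11, adjusted p = 3.01e-07). The KO libraries were then at 101.0% of their growth-medium mean and the WT libraries at 54.2%. On day 6, Top2a read 145, 158 and 179 against 237, 230.5 and 226 CPM. Mki67 (chr7:135689784-135716361, minus strand), the Ki-67 antigen that coats mitotic chromosomes and is widely used to count cycling cells, read 279 and 273 CPM in WT and 324, 293 and 307 CPM in KO libraries in growth medium. On day 1, Mki67 read 121, 119 and 118 against 218, 295 and 205 CPM. On day 3, Mki67 read 134, 156 and 118 against 253, 318 and 261 CPM (log2FC 1.03, SE 0.14, adjusted p = 2.12e-06). The KO libraries reached 90.1% of growth medium and the WT libraries 49.3%. On day 6, Mki67 read 71.6, 69.4 and 96.2 against 151, 129.6 and 111 CPM (log2FC 0.72, SE 0.14, adjusted p = 0.000183).

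The second question of the series is how expression changes from growth medium to each day. In the WT libraries all 44 genes fell by day 1 (median log2FC -1.48, where 27.6% of all genes were lower), by day 3 (-1.32, 29%) and by day 6 (-2.08, 31.1%). In the KO libraries 43 of the 44 fell by day 1, with a median of -0.68 (25.2% of all genes), and on the TPM scales 65.2% to 66.3% of all calls were higher instead of 51.9%. Cenpe was the exception, with a log2FC of -0.31 and an adjusted p of 0.0879. Without KO day 1 replicate 2 the count was again 43, with a median of -0.77, but Cenpe was then called (-0.62, adjusted p = 2.14e-05) and Cenpm was not (-0.31, adjusted p = 0.0874). By day 3 of the KO libraries 27 genes were lower than in growth medium (27.2% of all genes), Nusap1 was higher (30.4%) and 16 were not called, with a median of -0.38. Neither Top2a nor Mki67 was called, and of the 10 centromere and kinetochore genes 3 were called lower, near the 27.2% of all genes. By day 6 all 44 had fallen in the KO libraries, with a median of -1.73 (33.5%). These comparisons share the growth-medium libraries of each label.

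The change from growth medium was compared between the labels with an interaction term, in which a positive value means a smaller fall in the KO libraries. By day 1 it was positive and called for 32 of the 44 genes, with a median of 0.74 (2.64% of all genes were called in that direction). Of all genes called, 66.8% were in that direction with the main scaling and 51.4% to 57.4% with the other scalings except library size only. The count was 35 without KO day 1 replicate 2 and 10 without WT growth-medium replicate 2, which leaves 1 WT library there whose spread is assumed to be that of the other groups. By day 3 it was called for 43 genes, with a median of 0.98 (6.65% of all genes), Cenpk being the exception (0.95, adjusted p = 0.055). The share of all calls in that direction was 62.1%, and 45.2% to 51.6% with DESeq2's scaling or on TPM. The largest value was that of Ube2c (log2FC 1.33, SE 0.17, adjusted p = 1.44e-05) and the smallest that of Bub3 (log2FC 0.43, SE 0.12, adjusted p = 0.0165). By day 6 it was called for 12 genes, with a median of 0.42 (7.54% of all genes). These were Racgap1, Ttk, Cdc20, Kif20a, Bub1, Aurka, Pttg1, Cenpa, Kif2c, Ube2c (0.77), Cdc25c (0.79) and Cdc25b (0.86). The count by day 6 was 4 without KO growth-medium replicate 1, WT growth-medium replicate 2 or WT day 6 replicate 1, 5 without KO day 6 replicate 1, and 7 without WT growth-medium replicate 1.

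From day 1 to day 3 the change differed between the labels for a few genes. In the WT libraries 6 genes rose (11% of all genes) and 4 fell (8.68%), both near those shares. The median over the 44 was 0.11. Those that fell were Cenpa (-0.41), Cdc20 (-0.40), Cdc25b (-0.37) and Pttg1 (-0.36). Those that rose were Cenpi (0.51), Spc24 (0.49), Aurkb (0.45), Top2a (0.41), Spc25 (0.40) and Prc1 (0.28). In the KO libraries 25 genes rose (15.5% of all genes) and none fell (11.2%; none at an unadjusted p under 0.05, and none with DESeq2), with a median of 0.34, with the highest values in Cenpm (0.89), Aurkb (0.76) and Spc24 (0.72). Without KO day 1 replicate 2 the highest were Spc24 (0.74), Nusap1 (0.72) and Spc25 (0.70), and Cenpm stood at 0.60. The interaction was called for 5 genes (3.47% of all genes): Ube2c (0.78, adjusted p = 0.00433), Pttg1 (0.76, adjusted p = 0.0042), Cdc25b (0.71, adjusted p = 0.000116), Cenpa (0.66, adjusted p = 0.0309) and Cdc20 (0.57, adjusted p = 0.0126). Without KO day 1 replicate 2, which lies low for all 5, 4 of them were still called (0.61, 0.60, 0.59 and 0.48 in the order Ube2c, Pttg1, Cdc25b, Cdc20), Cenpa was not (0.56, adjusted p = 0.0558), and Cenpe and Nusap1 were. The rise in the KO libraries was called for 33 genes without that library, for 16 without KO day 3 replicate 3, for 10 when only the compared groups were fitted and for 15 or 16 on the TPM scales. In the WT libraries the 10 calls became 6 without WT day 1 replicate 1, WT day 1 replicate 2 or WT day 3 replicate 2, and 17 when only the compared groups were fitted.

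**Figure D4:**
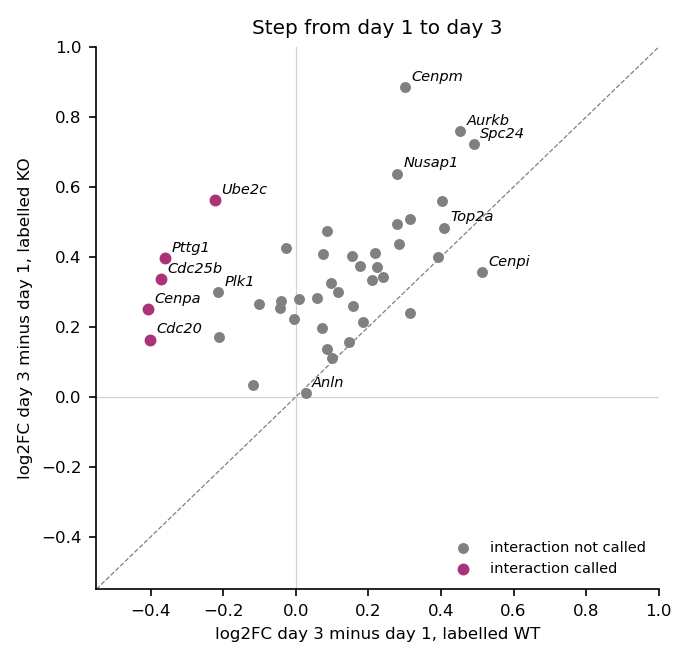
Log2 fold change from day 1 to day 3 in libraries labelled WT (x axis) and KO (y axis), 1 point per gene, with the line of equal change dashed. Coloured points are the 5 genes with a called interaction (Ube2c, Pttg1, Cdc25b, Cenpa, Cdc20), which lie left of 0 on the x axis and above 0 on the y axis.

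From day 3 to day 6 the genes fell under both labels. In the WT libraries 42 of the 44 fell (4.92% of all genes), with a median of -0.75, and Cenpk and Cenpm were not called. In the KO libraries all 44 fell (21.2%), with a median of -1.32. The fall was larger in the KO libraries for 30 genes by the interaction term (median -0.58, where 5.99% of all genes were called in that direction), led by Cenpm (-0.98) and Spc24 (-0.85). The values nearest 0 were those of Cdc25b (-0.15, adjusted p = 0.392) and Mki67 (-0.30, adjusted p = 0.351). Of all genes called, 51.5% were in the other direction, and 61.8% with DESeq2's scaling. The count was 18 without KO day 3 replicate 3 and 19 without WT day 3 replicate 3.

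Levels of different genes are compared per transcript length. Ube2c had the highest mean TPM of the 44 in all 8 groups, from 504 ± 33.1 TPM (SD, n = 2) in WT and 520.4 ± 10.6 TPM (SD, n = 3) in KO growth medium down to 97.5 ± 8.63 and 164 ± 6.20 TPM on day 6. Birc5 and Pttg1 took the next 2 places in every group, and in WT growth medium their levels (288 ± 16.8 TPM and 288 ± 10.1 TPM) did not differ beyond their spread. Kif18a, a motor that damps chromosome movement, was last or next to last in each group. Over all 23 libraries the 946 pairs of genes had a median Pearson r of 0.96 between their log2 CPM values (0.79 to 0.995), and 860 pairs had an r above 0.9. These values include the differences between the 8 groups, since the libraries share them. Within groups, over deviations from the group mean, the median r was 0.52. Both medians include KO day 1 replicate 2, which stood apart from its replicates, and neither was computed without it.

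Other genes of cell division, in lists that hold none of the 44, were counted the same way, beside 22.9%, 24% and 22% of all genes called higher and 19.2%, 19.2% and 20.8% called lower on days 1, 3 and 6. Of 32 other spindle and cytokinesis genes, 26 were higher on day 1, 29 on day 3 and 17 on day 6 in the KO libraries, with medians of 0.68, 0.87 and 0.34. Kif15, a spindle motor, had log2FC values of 1.14 and 1.21 on days 1 and 3, while Psrc1 was lower on days 1 and 6 (-0.54 and -0.37) and Haus1, of the augmin complex, on day 6 (-0.47). Of 27 other kinetochore genes, 22, 25 and 5 were higher on the 3 days (medians 0.58, 0.74 and 0.15), among them Knl1 on day 1 (0.99) and Cenpp on day 3 (1.18). Zwint and Cenpo were lower on day 6 (-0.29 and -0.28). Of 20 condensin and cohesin genes, 18, 14 and 5 were higher (medians 0.65, 0.73 and 0.18), led by Smc2 on day 1 (1.21) and Cdca5 on day 3 (1.11). Of 15 subunits and co-activators of the anaphase-promoting complex, 6, 9 and 5 were higher and 1, 1 and 3 lower (medians 0.20, 0.27 and 0.00). Its co-activator Fzr1 was at 0.74 on day 3 and the subunit Cdc16 at -0.34 on day 6.

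Of 9 genes for MuvB, B-Myb, Foxm1 and the pocket proteins, 6, 7 and 3 were higher on days 1, 3 and 6, with medians of 0.53, 0.50 and 0.26. Foxm1 itself had log2FC values of 0.67, 1.06 and 0.61 (adjusted p = 4.66e-05, 7.82e-08 and 0.000141), while the pocket protein gene Rbl2 was not called on day 3 or day 6 (0.13, adjusted p = 0.208, and -0.08, adjusted p = 0.461). Of 18 replication and licensing genes, which act in S phase, 17 were higher on day 1, 18 on day 3 and 2 on day 6, with medians of 0.77, 0.65 and -0.08. On day 6 Gins3 was higher (0.61) and Rrm2, a subunit of ribonucleotide reductase, lower (-0.63, adjusted p = 1.3e-05). The summed level of the replication and licensing list was then lower under the KO label, at 742.3 to 781.7 CPM against 789.7 to 853.5 CPM in the WT libraries. Whether this list differed from the 44 genes was not tested. In growth medium at most 1 gene of each list was called in either direction.

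**Figure D5:**
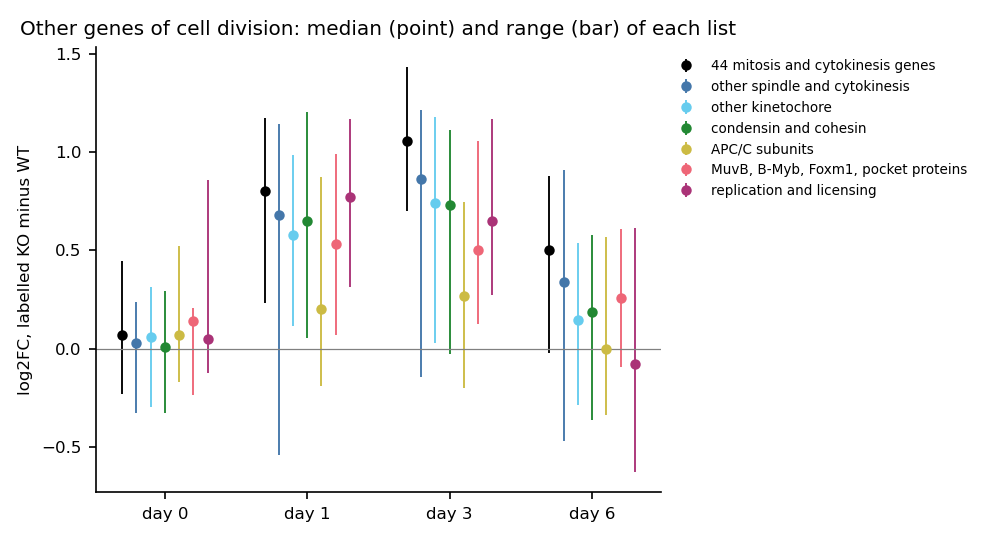
Log2 fold change between libraries labelled KO and WT (y axis) by day (x axis) for the 44 genes and 6 other lists of cell division genes, with points at the median of each list and bars from its lowest to its highest gene. On day 6 the median of the 44 genes is 0.50, that of the other spindle and cytokinesis genes 0.34 and that of the replication and licensing genes -0.08.

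Some of the 44 genes share exon sequence with a neighbour, and no source used here says whether counting took strand into account. In the GENCODE M21 annotation 13 of the 44 overlap an exon of another gene, and for 9 the partner has a row in the tables. Kif20a shares 1271 bases with Cdc23, Prc1 911 with Rccd1, and Ube2c 592 with Tnnc2 on the opposite strand. Tnnc2, the troponin C of fast muscle, was at 0 TPM in WT and 0.32 TPM (mean, n = 3) in KO growth medium, and at 108 ± 5.47 TPM in WT and 646 ± 107 TPM in KO libraries on day 6 (SD, n = 3). On day 1 it was at 2.07 ± 0.917 TPM in WT and 9.31 ± 1.67 TPM in KO libraries (SD, n = 3). On day 3 it was at 109 ± 9.91 TPM in WT and 276 ± 45.3 TPM in KO libraries (SD, n = 3), higher in KO as Ube2c was. Reads of the pair cannot be told apart without strand, so the values of Ube2c and its places in the rankings above are uncertain. Rccd1 had group means of 2.85 to 4.31 TPM, beside 148 ± 8.34 TPM for Prc1 in WT growth medium (SD, n = 2). Strand handling is just as unknown for Cdc20, Cdc25b, Cdca8, Cenpk, Kif18a, Kif20a, Nusap1 and Prc1, whose partners differ in level and in shared length. How far this touches their values was not tested.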

How the data were processed

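The authors deposited estimated counts per gene, which were whole numbers in the tables, and TPM values (abundances scaled for transcript length and to a common total), for the same 23 libraries of poly(A)-selected RNA. RSEM, Bowtie2 and the mouse build mm10 are named in the submitters' processing notes without versions or roles, and strand handling is not given in the sources used here. Counts were analysed in R 4.3.3 with edgeR 4.0.16: genes with enough counts were kept (minimum count 10, minimum total 15), libraries were scaled by TMM, and 1 quasi-likelihood model with a mean for each of the 8 groups gave 19 contrasts. A gene was called where its p-value, Benjamini-Hochberg adjusted across the 14187 tested genes, was below 0.05. CPM is the count divided by the TMM-scaled library size and brought to a common total. Library totals were within 22197606 to 23684077, while the median coefficient of variation of the 44 genes ran from 4.42% (KO, growth medium) to 13.1% (KO, day 1). Alternatives used DESeq2 1.42.0, limma 3.58.1 on log2(TPM + 1) and log2(TPM + 0.1), other scalings and filters, a replicate block, only the compared groups, and each library left out. The script was tested on simulated data. Gene coordinates and exon overlaps came from GENCODE M21 and promoters from RefSeq (GRCm38.p6).

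Genes with values in every library were 1 to 3 of each role. Others were named where they had the 2 highest or 2 lowest log2 fold changes of a comparison between labels or of an interaction, or where they were called against the others. Genes outside this rule, such as Aurka, Mad2l1, Nuf2 and Spc25 and those that missed or lost a call, were named after their values were seen. The 44 genes and all lists were chosen with earlier results of these data known.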

Additional observations from a re-analysis of the deposited data

Results flagged for a closer look

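The change with time differed between libraries labelled KO and WT by a test of that difference itself (the interaction term, edgeR quasi-likelihood test, adjusted p under 0.05 over 14187 genes) for part of the 44 genes in every pair of days tested. From growth medium to day 1 this held for 32 genes (2.64% of all genes were called in that direction), to day 3 for 43 genes (6.65%) and to day 6 for 12 genes (7.54%), in each case with the smaller fall in the KO libraries. From day 1 to day 3 it held for 5 genes (3.47%), all with the higher value in the KO libraries, and from day 3 to day 6 for 30 genes (5.99%), all with the larger fall in the KO libraries. The pairs of days share libraries, so these 5 counts do not stand apart from each other.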

How the results depend on the processing

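All 44 genes were called higher in the KO libraries on day 3 under every alternative and with any 1 library left out, and no call between labels was reversed among the 28 genes followed singly. In growth medium the count of called genes, 3, became 1 with library size only, 1 without a low-count filter and 12 with only the groups compared, and leaving out 1 KO library gave 1 to 3. From day 1 to day 3 the WT count, 10, became 17 with only the groups compared (6 to 10 with 1 library left out), and the KO count, 25, became 16 on log2(TPM + 1), 15 on log2(TPM + 0.1) and 10 with only the groups compared (16 to 33). The interaction from growth medium to day 6, 12 genes, became 7 and 6 on the TPM scales and 20 with only the groups compared (4 to 13). That from day 1 to day 3, 5 genes, became 3 on both TPM scales. Leaving out 1 library gave 10 to 36 for the interaction to day 1 and 18 to 32 for that from day 3 to day 6. Fits without 1 of the 2 WT growth-medium libraries left 1 library in that group, whose spread was assumed to be that of the other groups. The cause was not tested in any of these cases. Other counts of called genes stayed within 1.5 times the main count.

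Libraries with the same replicate number did not deviate together (mean correlations -0.094 to 0.049), so the numbers do not pair them. With a replicate block in the fit, counts between labels were 2, 44, 44 and 39 on days 0, 1, 3 and 6, and those of the interactions 32, 43 and 10 from growth medium to days 1, 3 and 6, 5 from day 1 to day 3 and 28 from day 3 to day 6. Among all genes called, the share of higher calls moved with the scale also in the comparisons with growth medium: for WT on day 1 from 49.6% to 60.6% and 61.2% on the TPM scales, on day 3 from 50.1% to 63.8% and 64.6%, and on day 6 from 51.2% to 63.5% and 63.9%. The median log2 fold change over all genes lay furthest from 0, at 0.20, for WT on day 6 against growth medium with log2(TPM + 0.1). The lowest count of any of the 44 genes was 41 (Cenpk, WT on day 6), and the standard error of its log2 fold change was the largest among the 6 genes not called on that day.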
